A study of Homo sapiens with 4 samples.

Results

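The unfolded protein response (UPR) genes described here were XBP1, ATF6, ERN1, EIF2AK3, HERPUD1, HYOU1, SDF2L1, CALR, PDIA4 and CRELD2. They were chosen by name, as every gene probe of the array whose gene name was 1 of these symbols, and they made up 10 of 43311 gene names on the array, with 11 probes. Gene expression was measured with a one-colour DNA microarray, which reads the amount of each RNA as the brightness of a labelled spot, in 2 cell lines. MDS-L is a line derived from cells of a patient with a myelodysplastic syndrome (MDS), and MDS-L/CDA is a derivative transduced with CDA, the gene of cytidine deaminase, which inactivates cytidine analogs. Both lines were grown in medium with 20 ng/mL IL-3. Each was exposed for 72 h to the vehicle, 0.1% DMSO, or to 1 μM 5-azacytidine (AZA), a cytidine analog that inhibits DNA methylation. There was 1 array per condition and no replicate, so no test was possible and every ratio below compares 2 arrays. In bulk RNA of this kind, fewer cells of a type and less RNA per cell cannot be told apart.

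The endoplasmic reticulum (ER) folds and modifies the proteins that a cell secretes or places in its membranes. When unfolded protein accumulates there, 3 sensors in its membrane respond. IRE1α, made by ERN1, splices XBP1 mRNA so that it encodes an active transcription factor; ATF6 is cut in the Golgi to release another; and PERK, made by EIF2AK3, phosphorylates a translation initiation factor, which lowers protein synthesis but favours the translation of ATF4. The factors of the first and second arms bind the ER stress response elements (ERSE and ERSE-II) and the UPR element (UPRE) in promoters of genes for chaperones, folding enzymes and parts of ER-associated degradation.

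The promoters of 6 members held an exact ERSE or ERSE-II, and these stretches are shown because they are the DNA through which the sensors are known to reach their targets. ERSE was searched as CCAAT and CCACG separated by 9 bases, ERSE-II as ATTGG and CCACG separated by 1 base, and UPRE as TGACGTGG, each on both strands, from 250 bases before to 50 bases after the RefSeq transcript start (GRCh38.p14). All 10 members had a promoter in the table. Each sequence runs 5′ to 3′ along the gene's own strand, and capitals mark the ERSE or ERSE-II, which on the other strand reads as its reverse complement:
XBP1 (chr22:28800573-28800651, minus strand): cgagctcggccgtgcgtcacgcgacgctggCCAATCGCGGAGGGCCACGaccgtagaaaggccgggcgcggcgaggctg
CALR (chr19:12938359-12938432, plus strand): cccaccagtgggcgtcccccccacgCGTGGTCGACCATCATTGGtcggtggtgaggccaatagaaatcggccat
CRELD2 (chr22:49918524-49918602, plus strand): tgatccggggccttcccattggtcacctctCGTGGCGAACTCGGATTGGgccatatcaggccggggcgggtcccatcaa
HERPUD1 (chr16:56931995-56932065, plus strand): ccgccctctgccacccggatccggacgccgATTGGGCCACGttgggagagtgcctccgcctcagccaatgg
HYOU1 (chr11:119057244-119057420, minus strand): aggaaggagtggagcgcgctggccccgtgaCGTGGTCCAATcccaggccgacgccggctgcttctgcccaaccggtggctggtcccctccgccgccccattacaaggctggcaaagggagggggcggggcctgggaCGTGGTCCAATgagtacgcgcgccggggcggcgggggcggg
SDF2L1 (chr22:21642084-21642154, plus strand): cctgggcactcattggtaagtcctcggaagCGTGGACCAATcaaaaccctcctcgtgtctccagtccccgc

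XBP1, CALR and CRELD2 each held 1 ERSE. HERPUD1 and SDF2L1 each held 1 ERSE-II. HYOU1 held 2, and its only UPRE, at -188 to -181 from the start, overlapped the distal one at -185 to -175. Of all 35116 promoters of the same length, 27 (0.0769%) held an ERSE, 19 (0.0541%) an ERSE-II and 256 (0.729%) a UPRE. The promoters of ATF6, ERN1, EIF2AK3 and PDIA4 did not hold these letters within this window. A match describes the sequence and is not a measured binding site.

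**Figure D1:**
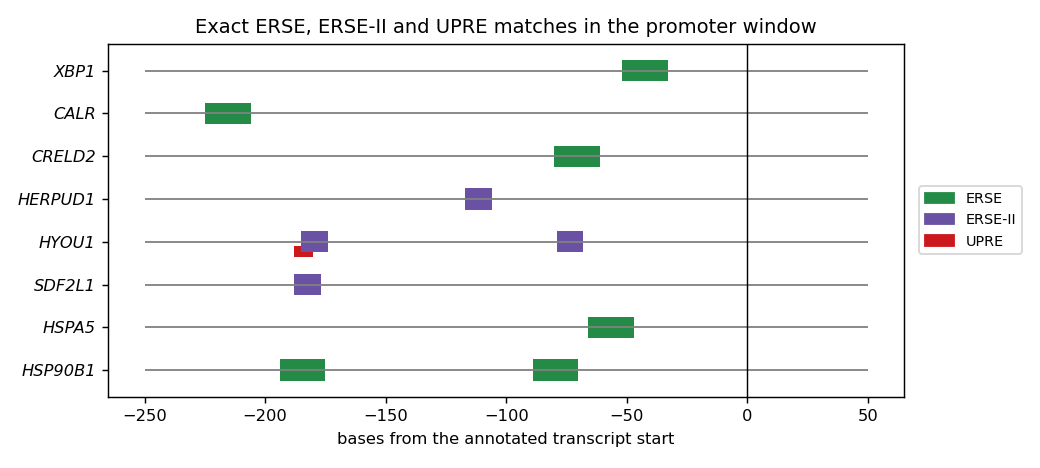
Positions of exact ERSE (green), ERSE-II (purple) and UPRE (red) matches in bases from the annotated transcript start (vertical line at 0), for the 6 members with a match and for HSPA5 and HSP90B1; grey lines span the window searched. The ERSE of XBP1 lies at -52 to -34, that of CRELD2 at -80 to -62 and that of CALR at -225 to -207.

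The signal of each probe was divided by the 75th percentile of the gene probes on its array, so that a scaled signal of 1 equals that percentile. The percentile before scaling was 52.5 and 52.9 in MDS-L cells with vehicle and AZA, and 40.8 and 37.3 in MDS-L/CDA cells, and between 32.6% and 36.5% of probes were well above background on an array. For the arrays of MDS-L cells with AZA and MDS-L/CDA cells with vehicle, the treatment tag in the labels is swapped, and some fields give the AZA dose in mM in place of μM; the groups used here follow titles, descriptions and source names. The only CDA probe was near background on all 4 arrays, so it gave no check of the line labels. Of 8 haematopoietic and myeloid markers, 7 were well above background on every array and MPO on none. IGJ, MZB1, TNFRSF17 and PRDM1, which mark antibody-secreting cells with a large ER, were not well above background on the arrays of either line. CD3D and CD2, T cell genes, were well above background with AZA in MDS-L cells, where the summed scaled signal of the 4 T cell markers was 5.92 against 0.517 with vehicle (0.812 against 0.474 in MDS-L/CDA cells), and their part in the results below was not tested. Of 5 epithelial markers only KRT8 and KRT18, and of 4 fibroblast markers none, were well above background on any array.

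Of the 10 members, 9 were well above background on all 4 arrays. EIF2AK3 was the exception. With 2 arrays per ratio, only a fold threshold was available, and it was read beside the share of all measured genes past the same threshold. In MDS-L cells, 1 of the 9 members was at least 2-fold higher with AZA than with vehicle (ERN1), against 6.73% of 17172 genes measured, and 1 was at least 2-fold lower (PDIA4), against 6.03%. At 1.5-fold, 1 was higher, against 14.1% of genes, and 2 were lower (XBP1 and PDIA4), against 18.1%. Among MDS-L/CDA ratios, none was past 2-fold in either direction, against 2.53% of 15393 genes higher and 3.07% lower. At 1.5-fold, 1 was higher (HYOU1), against 9.32%, and none was lower, against 9.6%. With counts of 0 to 2 of 9, these shares do not set the members apart from other genes.

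**Figure D2:**
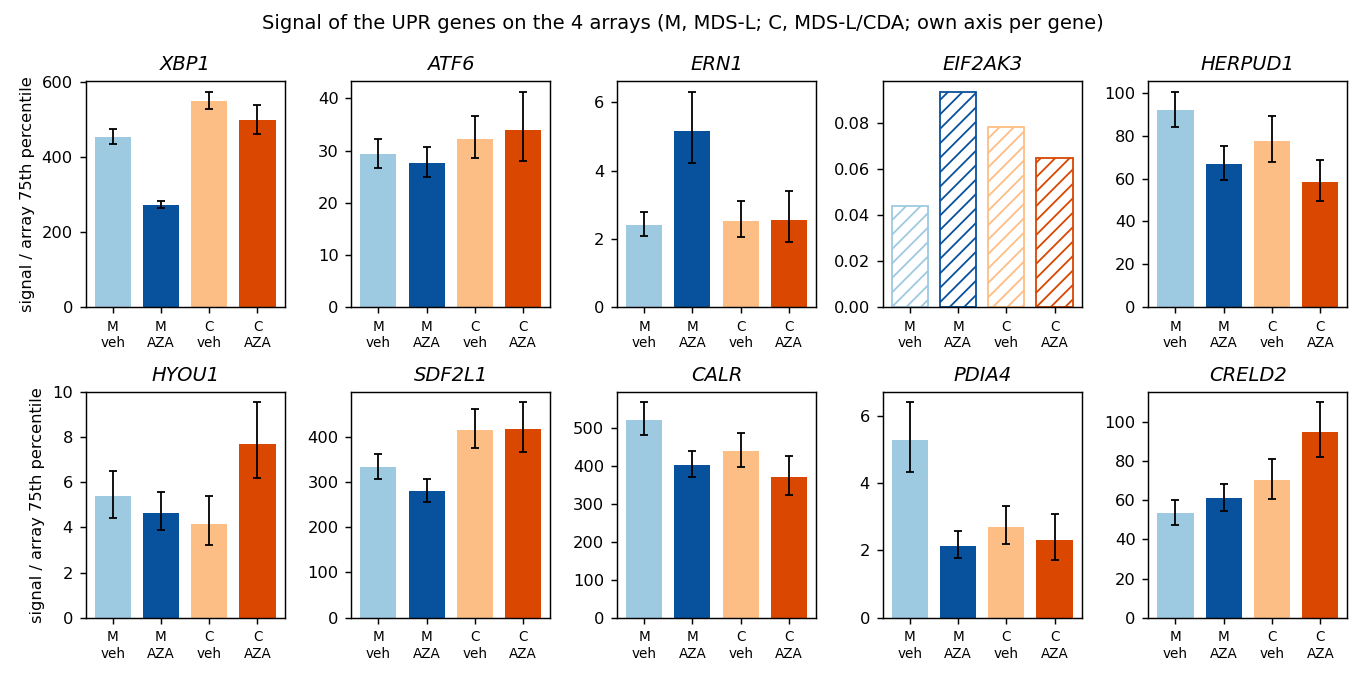
Scaled signal (linear axis from 0, own range per gene) of the brightest probe of each member on the 4 arrays; M is MDS-L, C is MDS-L/CDA, hatched bars were not well above background, and bars span 1 SD between spots of 1 probe on 1 array, which is not a replicate error. XBP1 and PDIA4 are lower and ERN1 is higher in MDS-L cells with AZA than with vehicle, whereas HYOU1 is highest in MDS-L/CDA cells with AZA.

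ERN1 encodes the kinase and ribonuclease that splices XBP1 mRNA. Its brighter probe (chr17:62116510-62116569, minus strand, hg19) had scaled signals of 2.41 with vehicle and 5.16 with AZA in MDS-L cells, and 2.53 with vehicle and 2.54 with AZA in MDS-L/CDA cells. The MDS-L array with AZA stood above the other 3, which lay close together. ERN1 rose 2.14-fold in MDS-L cells, a log2 ratio of 1.10 with a spot error of 0.36, and the log2 ratio in MDS-L/CDA cells was 0.00 with a spot error of 0.52. The spot error is the error of a log2 ratio that follows from the spread between repeat spots of probes of like signal on the same arrays. It covers neither hybridization nor culture. With normexp background correction the log2 ratio of ERN1 in MDS-L cells was 0.81, and with scaling to the median probe it was 0.56, both short of 2-fold. The difference between the lines' log2 ratios was 1.10 with a spot error of 0.63. With AZA, ERN1 was 2.04-fold lower in MDS-L/CDA than in MDS-L cells.

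The array file lists for this probe an Ensembl transcript, a predicted RefSeq transcript and a long noncoding RNA named after the gene, but not the RefSeq mRNA that encodes IRE1α. The second probe (chr17:62121087-62121146, minus strand), which represents that mRNA, had scaled signals of 0.0464, 0.169, 0.0816 and 0.111 in the same order of arrays. None of these was well above background, so it gave no ratio, and the rise of ERN1 rests on 1 probe that may read another transcript of the locus.

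XBP1 encodes the transcription factor whose mRNA IRE1α splices. Its probe (chr22:29190733-29190792, minus strand, hg19) is printed on 10 spots per array and is listed for the RefSeq transcripts of both the unspliced and the spliced form, which therefore cannot be told apart. The mean scaled signal was 454 with vehicle and 273 with AZA in MDS-L cells, and 550 with vehicle and 498 with AZA in MDS-L/CDA cells. XBP1 was lowest in MDS-L cells with AZA, and the other 3 arrays were all higher. XBP1 fell by 0.73 on the log2 scale in MDS-L cells, which is 1.66-fold lower, with an error of 0.03 from its own spots. With quantile normalization, and in the authors' table, the log2 ratio was -0.49, short of 1.5-fold. In MDS-L/CDA cells the log2 ratio was -0.14 with a spot error of 0.04.

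The 10 spots of XBP1 lay between 432 and 492 (median 454) with vehicle and between 261 and 289 (median 273) with AZA in MDS-L cells. These ranges did not overlap. For MDS-L/CDA cells, 9 spots lay between 515 and 571 (median 561) with vehicle, with 1 more left out as an outlier of the scanner software, and 10 lay between 429 and 573 (median 493) with AZA. These ranges did overlap. The difference between the lines' log2 ratios was -0.59 with a spot error of 0.05, which was the difference best resolved above spot error among the members; XBP1 is the member with repeat spots of its own, and this error covers neither cultures nor arrays. XBP1 was 1.82-fold higher in MDS-L/CDA than in MDS-L cells with AZA and 1.21-fold higher with vehicle, where the log2 ratio went down to -0.25 and so turned its sign under other normalizations.

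**Figure D3:**
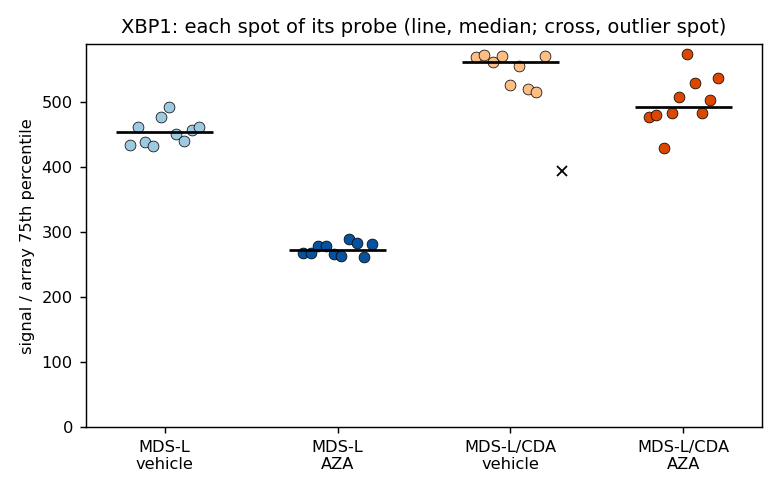
Scaled signal (linear axis from 0) of each spot of the XBP1 probe on the 4 arrays; points are spots of 1 array and not replicates of a condition, lines are medians, and the cross is the outlier spot left out. The spots of MDS-L cells with AZA (261 to 289) lie below those of the other 3 arrays.

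ATF6, the sensor that is itself a precursor of a transcription factor, had scaled signals of 29.3 with vehicle and 27.6 with AZA in MDS-L cells, and 32.3 and 34 in MDS-L/CDA cells (chr1:161928720-161928779, plus strand, hg19). The 4 arrays were close to each other. The log2 AZA/vehicle ratios, -0.09 with a spot error of 0.20 in MDS-L and 0.08 with a spot error of 0.34 in MDS-L/CDA cells, were both within that error. EIF2AK3, the gene of PERK, had scaled signals of 0.044, 0.0938, 0.0783 and 0.065 (chr2:88856582-88856641, minus strand). None was well above background; the lowest signal well above background on an array was between 0.19 and 0.296. No change of EIF2AK3 could therefore be read at this sensitivity.

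PDIA4 encodes a protein disulfide isomerase of the ER, an enzyme that forms and rearranges disulfide bonds. It showed the largest decrease among the members. Its probe (chr7:148700904-148700963, minus strand, hg19) is printed here because this fall rests on it alone:
PDIA4 probe: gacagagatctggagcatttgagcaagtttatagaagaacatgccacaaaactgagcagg

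PDIA4 had scaled signals of 5.26 with vehicle and 2.13 with AZA in MDS-L cells, and 2.7 with vehicle and 2.31 with AZA in MDS-L/CDA cells. The MDS-L array with vehicle stood above the other 3. PDIA4 fell by 1.30 on the log2 scale with AZA in MDS-L cells (2.47-fold lower, spot error 0.39), and its log2 ratio in MDS-L/CDA cells was -0.22 with a spot error of 0.52. The difference between the lines was -1.08 with a spot error of 0.65. With vehicle PDIA4 was already 1.95-fold lower in MDS-L/CDA than in MDS-L cells, a log2 ratio of -0.96 with a spot error of 0.42. With AZA the lines differed by 0.12 with a spot error of 0.50. The array of MDS-L cells with vehicle enters both the AZA/vehicle ratio in MDS-L cells and the comparison of the lines with vehicle. What set its value apart was not tested.

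HYOU1 encodes an ER chaperone of the HSP70 family that is induced by low oxygen. Its scaled signals (chr11:118915797-118915856, minus strand, hg19) were 5.37 with vehicle and 4.64 with AZA in MDS-L cells, and 4.17 with vehicle and 7.69 with AZA in MDS-L/CDA cells. The MDS-L/CDA array with AZA was the highest. HYOU1 rose 1.84-fold in MDS-L/CDA cells, a log2 ratio of 0.88 with a spot error of 0.48, and its log2 ratio in MDS-L cells was -0.21 with a spot error of 0.39. HYOU1 was the only member to pass 1.5-fold with AZA in the derivative.

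CALR encodes calreticulin, a lectin chaperone that binds calcium and helps glycoproteins fold. Its scaled signals (chr19:13055230-13055289, plus strand, hg19) were 521 with vehicle and 403 with AZA in MDS-L cells, and 439 with vehicle and 370 with AZA in MDS-L/CDA cells. The AZA array was the lower one in both lines, but the log2 ratios of -0.37 (spot error 0.17) and -0.25 (spot error 0.25) did not reach 1.5-fold, except that the first was -0.91 with scaling to the median probe. SDF2L1, a partner of ER chaperones, had scaled signals of 334, 280, 416 and 417 in the same order (chr22:21998511-21998570, plus strand). Its log2 ratios were -0.25 with a spot error of 0.18 in MDS-L cells and 0.00 with a spot error of 0.24 in MDS-L/CDA cells.

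HERPUD1 encodes a membrane protein of the ER that takes part in ER-associated degradation. Its scaled signals (chr16:56977700-56977759, plus strand, hg19) were 91.9 with vehicle and 66.8 with AZA in MDS-L cells, and 77.8 with vehicle and 58.3 with AZA in MDS-L/CDA cells. The log2 ratios were -0.46 (spot error 0.21) and -0.42 (spot error 0.31). HERPUD1 was lower with AZA in both lines, and the difference between the lines was -0.04 with a spot error of 0.38. With scaling to the median probe the log2 ratios were -1.0 and -0.47, and with quantile normalization over all arrays -0.20 and -0.38, so neither the size nor the order of the lines was stable. CRELD2, an ER protein with disulfide isomerase activity that is induced by ER stress, was higher with AZA in both lines, except in MDS-L cells when arrays were scaled to their median probe (log2 ratio -0.34). Its scaled signals (chr22:50320918-50320977, plus strand) were 53.2, 60.9, 70.1 and 94.9. The log2 ratios were 0.20 (spot error 0.23) in MDS-L and 0.44 (spot error 0.30) in MDS-L/CDA cells, also below 1.5-fold.

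The members did not share a direction. In MDS-L cells, 7 of the 9 had an AZA/vehicle ratio below 1 and 2 above, with a median log2 ratio of -0.25, whereas the median of all genes measured was -0.13 and 58.9% of them were below 1. The MDS-L/CDA ratios of 4 members were below 1 and of 5 above, with a median of 0.00 against 0.02 for all genes. Part of the ratio in MDS-L cells depends on how the arrays are scaled, since the all-gene median there moved from -0.13 to -0.67 when arrays were scaled to their median probe. At most 36.5% of probes were well above background on an array, so the median probe is one near background. With scaling to probes well above background on all arrays, the all-gene median in MDS-L cells was 0.00. Relative to the all-gene median, under 8 normalizations, XBP1 in MDS-L cells lay between -0.66 and -0.48, PDIA4 between -1.22 and -0.93 and ERN1 between 0.88 and 1.25. HYOU1 in MDS-L/CDA cells lay between 0.66 and 0.88. On the same relative scale in MDS-L cells, HERPUD1 lay between -0.37 and -0.18, CALR between -0.29 and -0.14, CRELD2 between 0.21 and 0.48, SDF2L1 between -0.13 and 0.01 and ATF6 between -0.01 and 0.15, so that SDF2L1 and ATF6 had no stable sign. The 8 normalizations are not separate checks. Both quantile normalizations and the authors' table gave nearly the same AZA/vehicle ratios. In MDS-L cells, leaving out the scaling gave nearly the same ratios as the scaling used here.

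**Figure D4:**
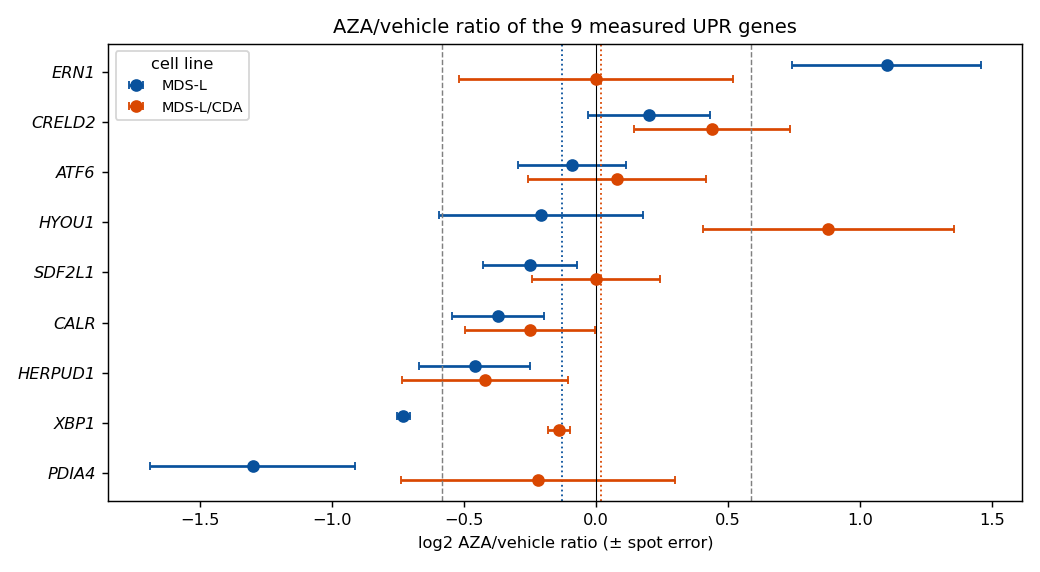
Log2 AZA/vehicle ratio of the 9 measured members in MDS-L (blue) and MDS-L/CDA (orange) cells; bars are the spot error (spots of 1 array, not replicates), dashed lines mark 1.5-fold, and dotted lines the median of all genes measured in each line. ERN1 (1.10), XBP1 (-0.73) and PDIA4 (-1.30) pass 1.5-fold in MDS-L cells and HYOU1 (0.88) in MDS-L/CDA cells.

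Grouping the members by their promoter sequence did not separate them. With an ERSE, the log2 ratios in MDS-L cells were -0.73 for XBP1, -0.37 for CALR and 0.20 for CRELD2. With an ERSE-II they were -0.46 for HERPUD1, -0.21 for HYOU1 and -0.25 for SDF2L1. Among the members with neither, ERN1 was highest of all and PDIA4 lowest of all. Across the array, 44 genes had an exact ERSE or ERSE-II in the RefSeq promoter table, 36 of these names were on the array, and 27 were measured in each line. In MDS-L cells 22 of these 27 had a ratio below 1, against 58.9% of all genes, and 5 above. Their median log2 ratio was -0.35, against -0.13 for all genes, and its range under other normalizations is not given. Without the members, 17 of 21 were below 1 and the median was again -0.35. These 21 include HSPA5, HSP90B1, CANX and PDIA6, which are also in the list of ER chaperones described below, so the counts share genes. For MDS-L/CDA cells, 12 of the 27 were below 1, against 48.3% of all genes, and the median was 0.00 against 0.02. At 1.5-fold, 5 of the 27 were lower and 1 higher in MDS-L cells, against 18.1% and 14.1% of all genes.

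The derivative was also compared with its parent line under the same treatment. With vehicle, no member was at least 1.5-fold higher in MDS-L/CDA cells, against 7.96% of 16015 genes, and 1 was lower (PDIA4), against 7.81%. The median log2 ratio of the members was 0.07 against 0.06 for all genes. With AZA, 3 members were at least 1.5-fold higher in MDS-L/CDA cells, against 20.3% of 16739 genes, and 1 was lower (ERN1), against 11.1%. The 3 higher members were XBP1 (1.82-fold), HYOU1 (1.66-fold) and CRELD2 (1.56-fold), and the median was 0.30 against 0.16. These comparisons use the same 4 arrays as the AZA/vehicle ratios and are no separate evidence.

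Other genes of the pathway were counted by the same rule, as 4 lists. Among 21 ER chaperones and folding enzymes, all measured in MDS-L cells, 6 fell at least 1.5-fold with AZA, against 18.1% of all genes, none rose, against 14.1%, and 17 had a ratio below 1, against 58.9%. The median log2 ratio was -0.41, and relative to all genes it was between -0.28 and -0.11 under the 8 normalizations. With those normalizations the number that fell ranged from 4 to 17. The number that rose ranged from 0 to 2. These counts use the brightest probe of each gene. Among genes below 1 by that probe, another probe was above 1 in MDS-L cells for P4HB (1.05), PDIA5 (1.26) and TXNDC5 (1.26). For HSP90B1, CANX, PDIA3 and DNAJC10 the other probe was below 1 as well. HSPA5, the gene of BiP, the abundant HSP70 chaperone that binds the sensors, had scaled signals of 25.9 and 15.8 in MDS-L and 29.6 and 27.4 in MDS-L/CDA cells, a ratio of 0.611 and 0.925, respectively. Its log2 ratio in MDS-L cells lay between -1.25 and -0.53 and passed 1.5-fold under 4 of the 8 normalizations.

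The others that fell were ERO1L, ERO1LB and PDIA6, which act in disulfide bond formation, UGGT1, which senses the folding of glycoproteins, and ERP44, which retains folding enzymes in the ER. ERO1L went from 12 to 5.45 (ratio 0.455), UGGT1 from 3.07 to 1.67 (0.544), PDIA6 from 21.5 to 13.8 (0.643) and ERO1LB from 0.568 to 0.288 (0.506). ERP44 was not well above background with AZA, and its ratio was at most 0.594. Under the 8 normalizations ERO1L passed 1.5-fold in 8, UGGT1, ERO1LB and ERP44 in 7 and PDIA6 in 4. In MDS-L/CDA cells, 20 of the list were measured, FKBP14, a prolyl isomerase, rose 1.82-fold, HSP90B1 fell to a ratio of 0.607, and the median was 0.03. HSP90B1, the ER member of the HSP90 family, had scaled signals of 228 and 172 in MDS-L and 252 and 153 in MDS-L/CDA cells. Its second probe had a ratio of 0.548 in MDS-L and 0.871 in MDS-L/CDA cells, where the first had 0.752 and 0.607, so the probes differed on the line in which it fell past 1.5-fold. The cochaperone DNAJB9 had ratios of 1.10 in MDS-L and 1.46 in MDS-L/CDA cells, and DNAJC3, an inhibitor of PERK, 1.06 and 1.29.

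Among 22 genes of ER-associated degradation and translocation, 21 were measured. In MDS-L cells EDEM1, which hands misfolded glycoproteins to degradation, rose 1.76-fold, and HERPUD2, a paralog of HERPUD1, rose 1.71-fold, a count of 2 of 21 against 14.1% of all genes. Neither passed 1.5-fold with scaling to the median probe or with normexp, where their log2 ratios were as low as 0.27 and 0.23. SEL1L, a subunit of the ubiquitin ligase complex of this pathway, fell to a ratio of 0.534 by its brightest probe, against 18.1% of all genes, whereas another probe had a ratio of 1.03. The median log2 ratio was 0.07, below 0 when arrays were scaled to their median probe (-0.47). In MDS-L/CDA cells DERL2 rose 2.04-fold, VIMP rose 1.59-fold and OS9, a lectin of the same complex, fell to 0.491, with a median of 0.14. VIMP passed 1.5-fold under 6 of the 8 normalizations, and DERL2 and OS9 under all 8.

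Among 12 sensor paralogues, proteases and partner factors, 11 were measured in the parent line and 10 in the derivative. CREB3L3, a membrane-bound relative of ATF6, was in MDS-L cells well above background only with AZA and at least 3.11-fold higher, and NFYB, a subunit of the factor that binds CCAAT, fell to 0.649. Both depended on the processing, since the log2 ratio of CREB3L3 went down to 0.39 with 1 of the 8 normalizations and NFYB passed 1.5-fold under 3. In MDS-L/CDA cells ATF6B, the paralog of ATF6, was at least 1.61-fold higher with AZA (past 1.5-fold under 6 of 8), and in MDS-L cells its ratio was 0.734. The brightest probes of MBTPS1 and MBTPS2, the proteases that cut ATF6, did not reach 1.5-fold in either line, but a second probe of MBTPS1 had a ratio of 2.66 in MDS-L/CDA cells, against 0.838 for the first. The median log2 ratios were -0.01 and -0.06, and the first had no stable sign, from -0.55 to 0.12 under the 8 normalizations.

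The list named PERK-ATF4 branch held 12 genes. In MDS-L cells 6 rose (PPP1R15A, CHAC1, ASNS, DDIT4, CEBPB and NUPR1), against 14.1% of all genes, 1 fell (PPP1R15B), against 18.1%, and the median log2 ratio was 0.62. That median went down to 0.08, and the number that rose to 3, with scaling to the median probe, which lies near background, and to 0.24 and 5 with normexp. With scaling to probes well above background on all arrays the median was 0.75, and 6 rose. For MDS-L/CDA cells 10 were measured, 2 rose, against 9.32%, none fell, and the median was 0.11. PPP1R15A rose 2.40-fold in MDS-L and 1.98-fold in MDS-L/CDA cells. CHAC1 was well above background only with AZA in MDS-L cells, and with the scaling used here it was at least 28.1-fold higher there. This bound lay between 2.35 and 4.94 on the log2 scale under the 8 normalizations. Another CHAC1 probe gave no ratio. The study picked this gene for its rise on these arrays, so its array ratio is no independent evidence of direction. By RT-qPCR, a separate measurement, the study reported a dose-dependent rise of CHAC1 with AZA in MDS-L cells and no rise in MDS-L/CDA cells. ATF4 itself had ratios of 1.03 and 0.977. DDIT3, the gene of the pro-apoptotic factor CHOP, went from 0.604 to 0.781 in MDS-L cells (ratio 1.29) and from 0.435 to 0.653 in MDS-L/CDA cells, where its ratio was 1.5 with a spot error of 0.54 on the log2 scale and reached the threshold under 2 of the 8 normalizations. Over the 4 lists, 18 calls were made in the parent line and 8 in the derivative. Of these, 6 and 4 held under all 8 normalizations. Such tallies do not count 8 separate checks, since several of the normalizations gave nearly the same ratios. In list order, 21, 21, 11 and 12 genes were measured in the parent line and 20, 21, 10 and 10 in the derivative. Among all genes, 14.1% rose and 18.1% fell past 1.5-fold in the parent line, against 9.32% and 9.6% in the derivative. The higher count in the parent line therefore does not set the lists apart from other genes. Among list genes not called by their brightest probe, 7 in MDS-L and 3 in MDS-L/CDA cells had another probe past 1.5-fold.

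**Figure D5:**
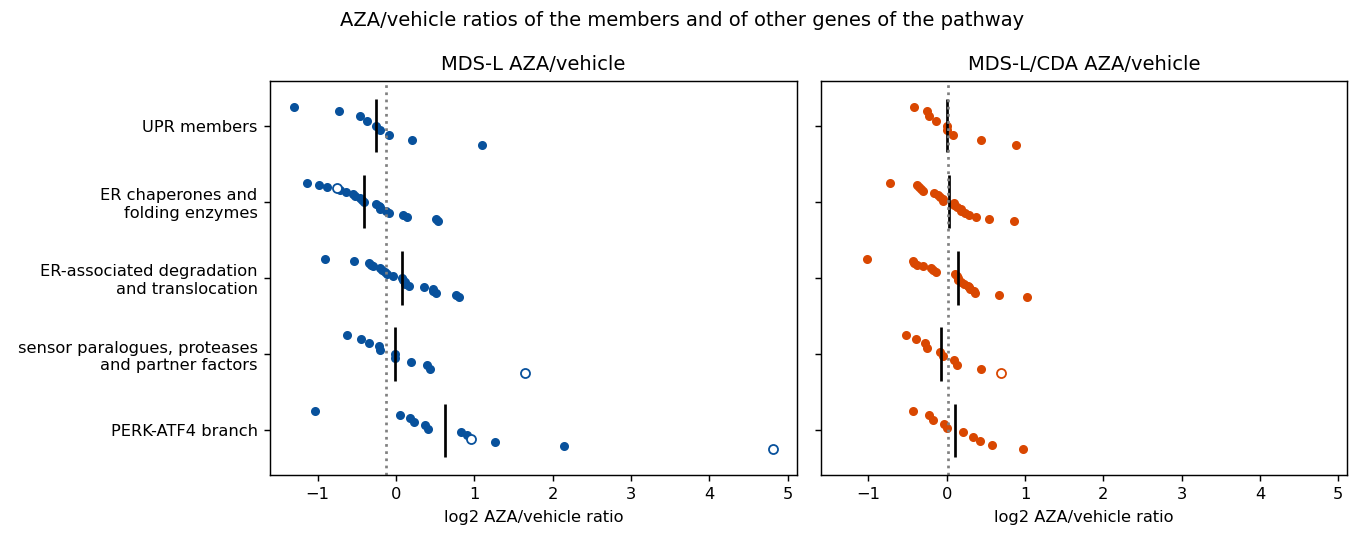
Log2 AZA/vehicle ratio (same axis in both panels) of the members and of the 4 lists in MDS-L (left) and MDS-L/CDA cells (right); each point is a gene, open points are bounds, black lines are list medians, and the dotted line is the median of all genes measured. In MDS-L cells the medians are -0.25 for the members, -0.41 for ER chaperones and folding enzymes and 0.62 for the PERK-ATF4 branch.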

How the data were processed

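RNA of 4 conditions was hybridized to 1 one-colour array each. The authors deposited scanner intensity per spot (Agilent Feature Extraction 10.7.1.1, background-subtracted within the array, not normalized between arrays; probe positions on hg19) and a value table of intensity that resembles quantile-normalized values, a step that the sources used here do not describe. Control and outlier-flagged spots were left out, which left 58185 of 58201 gene probes. Spots of 1 probe were averaged on the log2 scale and the array's 75th percentile subtracted. A gene was represented by its brightest probe over the 4 arrays. A ratio was computed where that probe was well above background on at least 1 array of the pair, and as a bound, against the lowest signal well above background on the array, where on 1 only. Genes were called at 2-fold or 1.5-fold; no test was possible. The spot error came from 10 spots per array for XBP1 and otherwise from the 30 replicated probes nearest in signal. The number of arrays limits the precision. The text names all members, 9 preset genes of the pathway lists and list genes past 1.5-fold with AZA in either line. Exon and UTR annotation of the probes was not used here. 1 marker result is not reported here. Members and lists were chosen with earlier results of these data known. The 12 alternatives were other normalizations, filters, probe rules and a Z score. Calls at 2-fold were tested on simulated data, with larger changes planted in brighter probes. This did not cover calls at 1.5-fold or on dim probes. Python 3.11.15, numpy 2.4.6, pandas 2.3.3, matplotlib 3.10.9, R 4.3.3 and limma 3.58.1 were used.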

Additional observations from a re-analysis of the deposited data

Results flagged for a closer look

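With AZA, 5 of the named genes that were well above background on all 4 arrays moved at least 1.5-fold in 1 line and had a ratio on the other side of 1 in the other line. These differences were not tested, since each line had 1 array per treatment. The share of all genes that meet this rule was not computed, so the count does not set these genes apart. In the line short of 1.5-fold, each ratio lay within its spot error. That error was 0.39 for HYOU1, 0.54 for ERO1LB and HERPUD2, 0.38 for PPP1R15B and 0.31 for ASNS. ERO1LB and HERPUD2 had scaled signals of at most 0.568 and 0.71, against a lowest signal well above background of 0.19 to 0.296. HYOU1 had log2 AZA/vehicle ratios of -0.21 in MDS-L and 0.88 in MDS-L/CDA cells, a difference of -1.09 with a spot error of 0.61. ERO1LB had -0.98 and 0.19, a difference of -1.17 with a spot error of 0.65. PPP1R15B, a subunit of the phosphatase that reverses the action of PERK, had -1.04 and 0.21, a difference of -1.25 with a spot error of 0.49. HERPUD2 had 0.77 and -0.20, a difference of 0.97 with a spot error of 0.65. ASNS, asparagine synthetase, had 0.90 and -0.17, a difference of 1.07 with a spot error of 0.38. The sign of all 5 differences was the same under 8 normalizations; that of HYOU1 ranged from -1.58 to -0.77, that of ERO1LB from -1.66 to -0.35 and that of HERPUD2 from 0.32 to 1.11.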

How the results depend on the processing

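Counts of members past a threshold were small, and several moved with the processing; no member past 1.5-fold turned its direction. Scaling to the median probe gave 0 members at least 2-fold higher and 3 lower with AZA in MDS-L cells, 0 and 7 at 1.5-fold, a median log2 ratio of -0.80 (-0.25 in the report), a median difference between the lines' log2 ratios of -0.73 (-0.24 in the report) and 4 members at least 1.5-fold lower in MDS-L/CDA than in MDS-L cells with vehicle. Its all-gene median in MDS-L cells was -0.67, so this shift was common to all genes. The median difference between the lines was -0.10 without scaling, -0.17 with normexp, -0.12 with scaling to probes well above background, and above 0 with quantile normalization over all arrays (0.02), within each line (0.01) and in the authors' table (0.03), so its sign was not stable. Without scaling, 4 members were lower with vehicle in MDS-L/CDA cells, and with AZA 0 were higher and 3 lower. Quantile normalization over all arrays, like the authors' value table, left 1 member at least 1.5-fold lower with AZA in MDS-L cells (PDIA4) and 1 higher in MDS-L/CDA than MDS-L cells with AZA. Quantile normalization within each line left 1 lower with AZA in MDS-L cells, 3 lower in MDS-L/CDA cells with vehicle, and with AZA 0 higher and 3 lower. With normexp background correction 0 members were 2-fold higher in MDS-L cells, and 0 were 1.5-fold higher in MDS-L/CDA than MDS-L cells with AZA. With no filter on background, 2 were higher in MDS-L cells at 2-fold and 2 at 1.5-fold, and 1 at 1.5-fold in MDS-L/CDA cells with vehicle. Requiring a Z score of 2 besides the fold left 0 higher and 0 lower in MDS-L cells. Over 10 alternatives the log2 ratio in MDS-L cells ranged from -1.27 to -0.49 for XBP1, from -1.85 to -1.0 for PDIA4 and from 0.56 to 1.24 for ERN1, and in MDS-L/CDA cells from 0.64 to 0.90 for HYOU1; the cause of these shifts was not tested beyond the shift named above. Signals near background, as for EIF2AK3, limit what these arrays can show. No paired analysis was possible because there was 1 array per condition and the labels carry no replicate numbers, and no array could be left out for the same reason.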
